A study of Mus musculus with 40 samples.

Results

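WT Th17 cells were compared with WT Th1 cells at 48 h after induction, on 10 of the 40 arrays of a series in which Malt1-/- cells and a time of 72 h were also measured. The members were chosen by the sample titles: 5 arrays titled WT TH17 and 5 titled WT TH1 at 48 hours, with every gene that passed the detection filter. All 10 samples shared the C57BL6 background, an age of 8-12 weeks and the starting cells, naive CD4+ T cells taken from spleens and lymph nodes, and no group of the comparison carried a mutation. The groups differed in the lineage to which the naive cells had been induced. The cytokines and antibodies used for induction, and how many animals stood behind a culture, are not stated in the labels. Nothing in the labels ties replicates to separate animals. The p-values therefore reflect only how much these samples varied, possibly for technical reasons, and the number of arrays limits the precision. Total RNA was read on Illumina MouseWG-6 v2 bead arrays, where each gene is measured by a hybridized probe. Levels are log2 intensity after background correction and quantile normalization, given as mean ± SD over n = 5 arrays. Differences are log2, Th17 minus Th1, ± their standard error (SE), and a gene was called at an adjusted p under 0.05 (limma, Benjamini-Hochberg over all 10730 genes tested).

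Helper T cells take on different fates according to the cytokines around them when a naive cell is first activated. Interleukin 12, acting through STAT4, and interferon gamma raise T-bet, the product of Tbx21, and the resulting Th1 cell makes interferon gamma against intracellular microbes. Transforming growth factor beta together with interleukin 6 acts through SMAD proteins and STAT3 to raise orphan nuclear receptors, among them RORα (Rora), and the resulting Th17 cell makes interleukins 17A and 17F at mucosal surfaces. Both lineages start from the same naive cell.

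Some arrays stood apart, by their correlations or by the levels of genes tested below. Th17 replicate 5 correlated more closely with the Malt1-/- Th17 group at 48 h (r = 0.977 with the mean of that group) than with the other arrays of its own group (0.969), and its nearest single array was WT Th17 at 72 h, replicate 5 (0.989). Th1 replicate 1 was about as close to Malt1-/- Th1 at 48 h (0.9861) as to its own group (0.9857), and its nearest array was WT Th1 at 72 h, replicate 4 (0.988). The own-group correlation of Th1 replicate 1 was level with those of Th1 replicates 2 and 3 (0.9858 and 0.9860). The mean of an array's own group left out the array itself, so it held fewer arrays than the mean of another group. Th1 replicate 4 correlated with its own group (0.989), yet it was the only Th1 array on which Il17f was detected. It was also the highest Th1 array for 168 of the 373 genes called at least 2-fold higher in Th17. The counts for Th1 replicates 1, 2, 3 and 5 were 79, 41, 62 and 23. Th17 replicate 5 was the highest Th17 array for 200 of the 373 genes. Th1 replicate 1 was the lowest Th1 array for 141 of the 325 genes called at least 2-fold lower. These genes were called from the same arrays. Between 14640 and 16784 of 45281 probes were detected on each of the 10 arrays. Counts are given without these 3 arrays where they move by more than 1.5 times. In the 5 Th17 arrays the Th17 markers Il17a, Il17f and Ccr6 were detected throughout, and Il22 and Il23r were detected on none of the 10 arrays. In the 5 Th1 arrays the Th1 markers Ifng, Tbx21 and Il12rb2 were detected throughout and lay above every Th17 array, whereas the chemokine receptor Cxcr3 was higher in Th17.

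The lineages differed in 1873 of 10730 genes (17.5%), 1094 of them higher in Th17 (10.2%) and 779 lower (7.26%). All counts given below for gene lists stand beside these shares, and a count near them is not a result about its list. Some genes, such as Atf3, Il12rb2 and Tnfsf11, belong to several lists, so the counts of different lists are not independent. A difference of at least 2-fold was called upward for 373 genes (3.48%) and downward for 325 (3.03%). The 5 values of one lineage lay wholly above those of the other for 1369 genes (12.8%). The median over all genes was 0.0039. With median scaling in place of quantile normalization that median was -0.12, and 1255 genes were called, 400 higher and 855 lower, so that the share of higher calls went from 58.4% to 31.9%. The balance between small rises and small falls therefore rested on the scaling, while no called gene named below changed direction under it. The sizes of the differences rested on the background correction, in which a constant of 16 is added after the correction. Of 145 called genes named in the text, 70 had a fold over 1.5 times smaller with no background correction, 70 in the authors' deposited value table and 41 with a constant of 50, while 0 had a larger one by that margin and 0 changed direction. A fold written as at least a value is a bound under the correction used here. Of 15 genes given that way, 14 had a fold below the bound with no correction and 12 with a constant of 50. Among 62 named genes with other kept probes, 30 of 95 such probes did not pass where the probe used did, and 0 were called the opposite way. A culture with fewer cells of a kind and one with less RNA per cell cannot be told apart in these bulk samples.

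**Figure D1:**
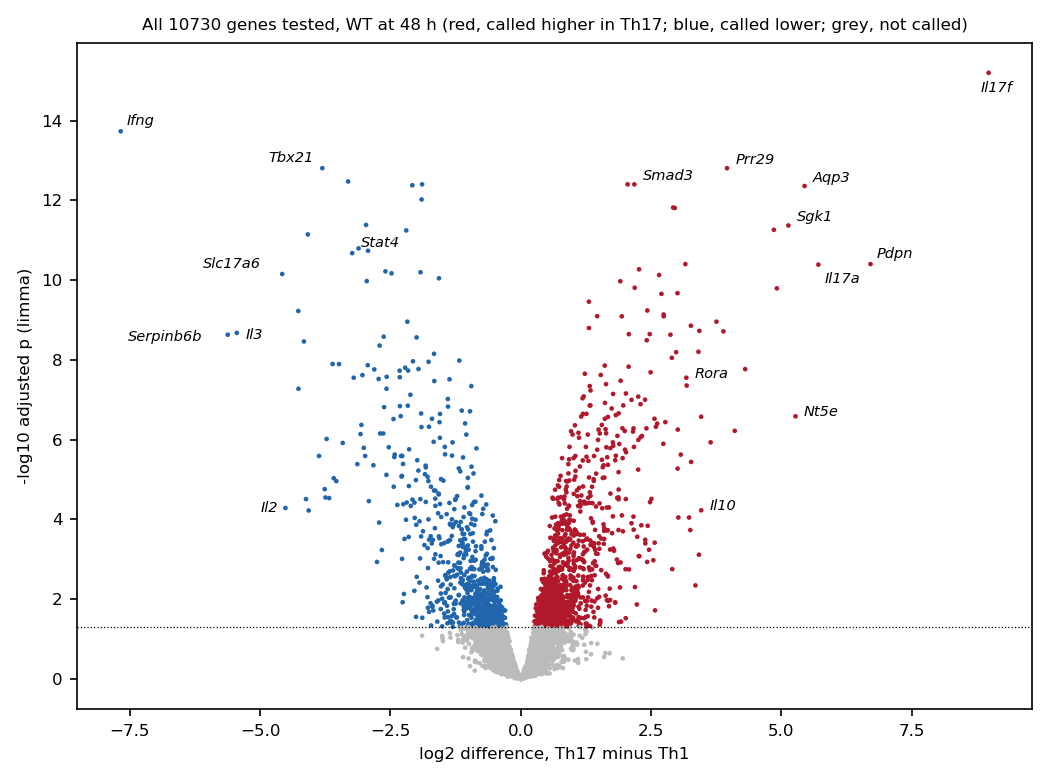
Each point is 1 of the 10730 genes tested, placed by its log2 difference (Th17 minus Th1, x axis) and by -log10 of its adjusted p (y axis), with the dotted line at 0.05. Il17f (8.97) and Ifng (-7.67) mark the ends of the x axis, and 1873 genes lie above the line.

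Il17f, which encodes interleukin 17F, was the largest rise of all genes (probe ILMN_2741201). Its Th17 levels were 14.56, 14.43, 14.58, 14.47 and 14.56 in replicates 1 to 5. Its Th1 levels were 4.45, 4.87, 4.45, 9.37 and 4.59. Replicate 4 of Th1 was more than 4 units above the other Th1 arrays, on which Il17f was not detected, and all Th17 arrays were higher still. The difference was 8.97 ± 0.49 (adjusted p = 6.3e-16), or 503-fold, and without Th1 replicate 4 it was 9.93. The fold was 118 with no background correction and 246 with a constant of 50. Il17a, the founding member of the family, stood at 11.15, 11.40, 10.59, 9.53 and 10.73 in Th17 and at 4.91, 4.96, 4.75, 5.61 and 4.63 in Th1, with no overlap. It was 52.3-fold higher (5.71 ± 0.49, adjusted p = 4.1e-11), 11.3-fold with no background correction and 25.5-fold with a constant of 50, and 4 of the 5 Th1 arrays did not detect it. Il17f varied little between the Th17 arrays (SD 0.065), whereas Il17a covered almost 2 units, with replicate 4 lowest. The next cytokines of the Th17 list were also higher in Th17. Il21, a cytokine that Th17 and follicular helper cells make and respond to, was at 11.29, 10.94, 10.32, 10.33 and 9.3 in Th17 and 8.31, 7.52, 8.53, 9.19 and 6.11 in Th1 (2.51 ± 0.42, adjusted p = 3.1e-05). The groups did not overlap, and Il21 was detected on all Th1 arrays. Il10, which encodes a cytokine that restrains inflammation, was at 10.28, 10.41, 10.20, 11.02 and 8.41 in Th17 and 6.77, 6.62, 7.75, 6.39 and 5.47 in Th1. It was 11-fold higher (3.46 ± 0.61, adjusted p = 5.9e-05), and Th17 replicate 5 was the lowest Th17 array. Ccl20, the ligand of CCR6, was higher by 2.26 ± 0.49 (adjusted p = 0.00083). Csf2, which encodes the growth factor GM-CSF and is a cytokine of inflammatory Th17 cells, went the other way. Its levels were 4.75, 5.23, 4.88, 5.7 and 4.97 in Th17, where 1 array detected it, and 6.17, 7.48, 9.43, 7.69 and 9.34 in Th1 (-2.91 ± 0.50, adjusted p = 3.5e-05). Of the 8 genes of the Th17 cytokine list that were tested, 5 were called higher and 1 lower, with a median of 2.38, against 10.2% and 7.26% of all genes. The remaining members were Il24, a cytokine of the interleukin 10 family, and Lif, a cytokine of the interleukin 6 family. Il24 was at 9.55, 9.44, 9.33, 10.15 and 4.66 in Th17, so that replicate 5 lay near background and far below the rest, and its difference was 1.96 ± 1.22 (adjusted p = 0.31) with that array and 2.95 without it (adjusted p = 0.10). It was called higher with array weights (0.038) and without the 8 arrays of the series that were closer to another group (adjusted p = 0.0014). The difference of Lif was -0.28 ± 0.35 (adjusted p = 0.66). Il22 and Il9 did not pass the detection filter.

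Ifng, which encodes interferon gamma, was the largest fall of all genes. Its Th17 levels were 6.13, 6.42, 6.97, 7.2 and 5.81, detected on every array. Its Th1 levels were 13.76, 14.72, 14.59, 13.98 and 13.87. All Th1 arrays lay more than 6 units above all Th17 arrays, and Ifng was 204-fold lower in Th17 (-7.67 ± 0.48, adjusted p = 1.9e-14), 82.6-fold with no background correction. A second Ifng probe had a difference of -7.59. Il2, the growth factor of activated T cells, was at 10.52, 10.76, 9.57, 8.48 and 8.96 in Th17 and at 12.01, 14.65, 14.63, 14.53 and 15.04 in Th1. Th1 replicate 1 was more than 2 units below the other Th1 arrays, and the difference was -4.51 ± 0.79 (adjusted p = 5.2e-05). Il3, a growth factor of blood cell precursors, was at 7.41, 11.39, 11.15, 10.86 and 10.67 in Th1, again lowest in replicate 1, and was detected on none of the Th17 arrays (4.85 ± 0.25). It was at least 31.4-fold lower in Th17 (adjusted p = 2.1e-09), but the measured fold was 9.61 with no background correction and 21 with a constant of 50. Its measured difference of -5.45 became -6.17 without Th1 replicate 1. The chemokines Ccl3 and Ccl5, which attract T cells and monocytes, were lower, at differences of -4.26 and -3.87 (9.41 ± 0.46 and 6.37 ± 0.75 in Th17, 13.68 ± 0.29 and 10.24 ± 0.68 in Th1, adjusted p = 5.3e-08 and 2.6e-06). Nkg7, a membrane protein of cytotoxic granules, was at 6.89, 6.68, 7.12, 7.26 and 8.64 in Th17 and 11.68, 11.43, 11.20, 11.06 and 11.64 in Th1 (-4.08 ± 0.33, adjusted p = 7.1e-12). Th17 replicate 5 was the highest Th17 array for both Nkg7 and Ccl5. Fasl, the death ligand of the TNF family, was lower, with a difference of -2.73 (SE 0.32, adjusted p = 3.0e-08). Of the 13 tested genes of the Th1 cytokine and effector list, 8 were called lower in Th17 and 1 higher, with a median of -2.08, against 7.26% and 10.2% of all genes. The 1 higher gene was Ctsw, a cysteine protease of lymphocytes with killing activity, at 12.39 ± 0.71 in Th17 and 8.5 ± 1.23 in Th1 (3.89 ± 0.40, adjusted p = 1.9e-09). Tnf and Lta, which encode tumour necrosis factor and lymphotoxin alpha, were not called, at -0.36 ± 0.45 and 0.27 ± 0.49 (adjusted p = 0.67 and 0.78). Gzmb, a granzyme, did not pass the detection filter.

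**Figure D2:**
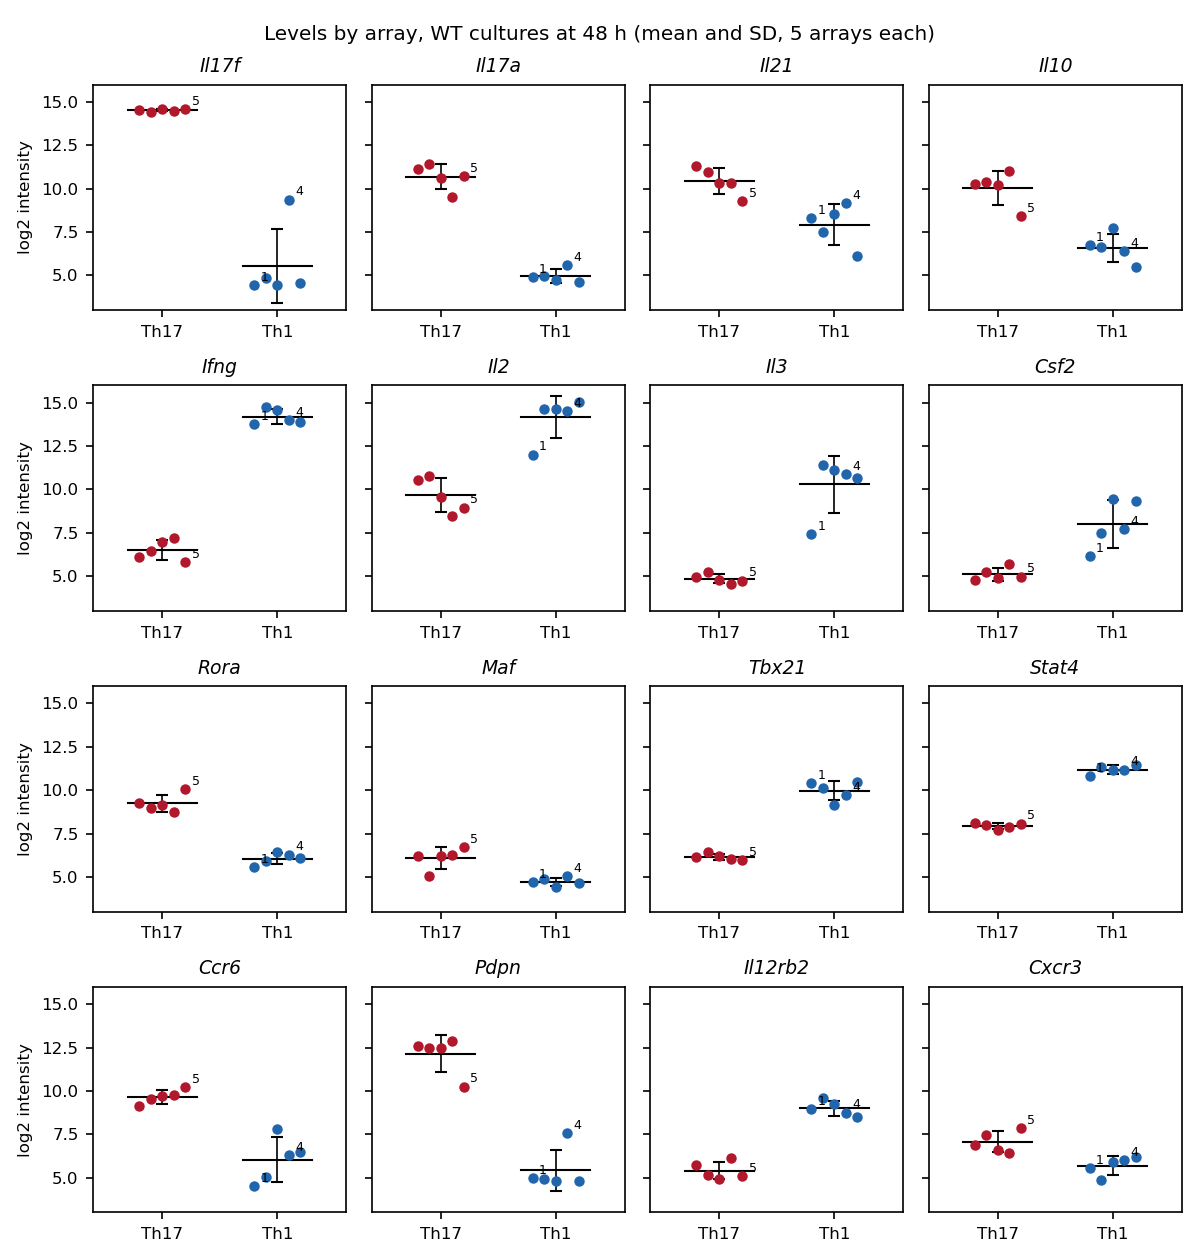
Each point is the log2 intensity (y axis) of 1 array in the 5 Th17 (red) and 5 Th1 (blue) WT cultures at 48 h. Lines and bars give the mean and SD, and the numbers mark Th17 replicate 5 and Th1 replicates 1 and 4. Il17f is at 9.37 in Th1 replicate 4 and at 4.45 to 4.87 in the other Th1 arrays, while Ifng is above 13 in every Th1 array.

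The transcription factors followed the same division in part. Tbx21, which encodes the Th1 regulator T-bet, was at 6.16, 6.45, 6.18, 6.03 and 5.98 in Th17 and 10.42, 10.11, 9.13, 9.72 and 10.46 in Th1. Every Th1 array was above every Th17 array by more than 2 units, and Tbx21 was 14.0-fold lower in Th17 (-3.81 ± 0.26, adjusted p = 1.6e-13). Eomes, the related T-box factor, was detected on none of the Th17 arrays and on 4 of the Th1 arrays (4.96, 6.43, 7.2, 7.28 and 7.14), where replicate 1 was lowest. It was at least 2.43-fold lower (4.46 ± 0.051 against 6.6 ± 0.98, adjusted p = 1.8e-06). Stat4, which carries the interleukin 12 signal, was at 8.11, 8.0, 7.71, 7.86 and 8.08 in Th17 and 10.80, 11.35, 11.16, 11.19 and 11.43 in Th1, and was 9.41-fold lower (-3.23 ± 0.27, adjusted p = 2.1e-11). A second Stat4 probe did not pass (-0.47). Irf1, a factor induced by interferon, was at 10.41, 10.12, 10.75, 10.71 and 11.76 in Th17 and 12.92, 12.79, 12.88, 13 and 13.05 in Th1 (-2.18 ± 0.22, adjusted p = 1.1e-09). Replicate 5 was the highest Th17 array, the Th1 arrays lay close together, and the groups did not overlap. The related factor Irf8 was lower (difference -1.64), as was Twist1, which dampens Th1 cytokines (-1.4), with adjusted p = 3.0e-05 and 0.00036. Id2, an inhibitor of E proteins, was higher in Th17 by 1.19 ± 0.26 (adjusted p = 0.00075). All 9 tested genes of the Th1 transcription factor list were called, 8 lower and 1 higher, with a median of -1.64, against 7.26% and 10.2% of all genes. Runx3 was not tested.

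On the Th17 side, Rora, which encodes RORα, was at 9.28, 8.98, 9.12, 8.72 and 10.07 in Th17 and 5.57, 5.92, 6.42, 6.28 and 6.09 in Th1. The groups were apart by more than 2 units, and Rora was 9.03-fold higher (3.18 ± 0.37, adjusted p = 2.8e-08). A second Rora probe lay near background and did not pass (-0.32). Maf, which encodes c-MAF, an activator of Il10 and Il21, was detected on 4 Th17 arrays (6.19, 5.04, 6.21, 6.26 and 6.7) and on none of the Th1 arrays (4.73 ± 0.23), and was at least 1.78-fold higher (adjusted p = 9.4e-05). Irf4, a factor needed by several helper lineages, was at 12.82, 12.80, 12.81, 12.77 and 12.87 in Th17 and 12.65, 12.66, 12.35, 12.18 and 12.43 in Th1. The groups did not overlap, but the difference was small (0.36 ± 0.11, adjusted p = 0.014) and did not pass without Th1 replicate 4 (0.29, adjusted p = 0.062), with median scaling (adjusted p = 0.65), with only the 10 arrays compared (0.089) or without the 3 arrays that stood apart (0.090). Batf, its partner on DNA, had a difference of 0.074 ± 0.19 (adjusted p = 0.85), and Hif1a, the oxygen-sensing factor, one of 0.35 ± 0.32 (adjusted p = 0.52). Stat3, which carries the interleukin 6 signal, differed by 0.27 ± 0.25 (adjusted p = 0.51). A further Stat3 probe was called (0.65, adjusted p = 0.040 over all kept probes) and the other was not (0.47). Bhlhe40, a factor that promotes Csf2 and Ifng, was lower, with a difference of -0.68 (SE 0.23, adjusted p = 0.038), a call lost without any of 7 single arrays (adjusted p up to 0.085) and under 3 of 13 other alternatives. Of the 12 tested genes of the Th17 transcription factor list 4 were called higher and 1 lower, with a median of 0.31, against 10.2% and 7.26% of all genes. Without Th1 replicate 4 the counts were 2 and 0, as they were without the 3 arrays that stood apart. Ahr did not pass the filter.

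Promoters of genes from both ends of the comparison are shown because they hold short motifs recognised by the factors just described. Each is the 250 bases before the annotated start in RefSeq (GRCm38.p6), written 5′ to 3′ on the strand of the gene, with motif matches in capitals. The motifs searched, on both strands, were AGGTCA (the half-site of ROR receptors), AGGTGTGA (a T-box half-site), TTCNNNGAA (the palindrome that STAT dimers bind) and the interferon response element bound by IRF and STAT complexes, taken as GAAA repeated after any 2 bases. The windows were chr1:20730655-20730904 (plus strand) for Il17a, chr1:20784271-20784520 (minus) for Il17f, chr10:118440796-118441045 (plus) for Ifng, chr7:43436888-43437137 (plus) for Nkg7, chr4:156200819-156201068 (minus) for Isg15 and chr11:53769764-53770013 (plus) for Irf1.
Il17a: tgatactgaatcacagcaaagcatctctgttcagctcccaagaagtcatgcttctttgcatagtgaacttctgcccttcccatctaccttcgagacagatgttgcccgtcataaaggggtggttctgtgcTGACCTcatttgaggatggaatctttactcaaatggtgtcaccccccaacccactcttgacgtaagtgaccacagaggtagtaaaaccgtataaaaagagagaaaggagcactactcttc
Il17f: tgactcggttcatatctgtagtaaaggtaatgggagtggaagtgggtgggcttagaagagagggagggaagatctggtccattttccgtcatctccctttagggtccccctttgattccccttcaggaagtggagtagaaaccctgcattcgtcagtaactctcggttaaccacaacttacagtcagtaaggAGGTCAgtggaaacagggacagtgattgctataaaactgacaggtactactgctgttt
Ifng: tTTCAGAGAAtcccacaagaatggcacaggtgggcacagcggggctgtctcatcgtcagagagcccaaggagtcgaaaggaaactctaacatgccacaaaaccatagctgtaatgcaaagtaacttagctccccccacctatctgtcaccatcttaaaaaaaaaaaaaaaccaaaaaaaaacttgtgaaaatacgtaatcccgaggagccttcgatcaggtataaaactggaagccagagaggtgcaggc
Nkg7: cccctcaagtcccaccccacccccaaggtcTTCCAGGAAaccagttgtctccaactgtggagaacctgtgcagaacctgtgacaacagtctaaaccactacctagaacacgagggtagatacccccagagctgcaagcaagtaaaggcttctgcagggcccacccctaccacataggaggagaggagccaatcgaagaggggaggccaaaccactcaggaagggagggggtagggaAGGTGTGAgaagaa
Isg15: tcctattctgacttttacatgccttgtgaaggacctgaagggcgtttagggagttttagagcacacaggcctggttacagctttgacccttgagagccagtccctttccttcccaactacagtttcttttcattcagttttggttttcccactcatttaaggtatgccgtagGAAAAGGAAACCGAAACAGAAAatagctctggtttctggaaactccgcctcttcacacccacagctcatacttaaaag
Irf1: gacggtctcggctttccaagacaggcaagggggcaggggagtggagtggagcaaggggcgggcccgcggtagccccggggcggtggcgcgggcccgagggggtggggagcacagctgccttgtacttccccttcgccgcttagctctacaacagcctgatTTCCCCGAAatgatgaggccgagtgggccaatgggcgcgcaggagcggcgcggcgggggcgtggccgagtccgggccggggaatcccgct

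Il17a and Il17f, the pair of interleukin genes with the highest Th17 levels relative to Th1, each held 1 AGGTCA in these windows, 120 to 115 bases before the start on the opposite strand in Il17a and 58 to 53 bases before it in Il17f. Nkg7 held AGGTGTGA 14 to 7 bases before its start and a STAT palindrome farther up, and Ifng held 1 STAT palindrome at the far end of its window. Isg15 held 3 overlapping interferon response elements within 78 to 57 bases of its start, and Irf1, shown at the first listed of its 2 windows, held the STAT palindrome TTCCCCGAA. Other promoters held these motifs as well. AGGTCA was present in 13.2% of the 8760 tested genes with a window, in 13.7% of the 299 genes called at least 2-fold higher in Th17 that had one, and in 15.4% of the 253 called at least 2-fold lower. AGGTGTGA was present in 1.08%, 1.0% and 2.37% of these sets. The STAT palindrome was present in 7.33% of tested genes, in 5.35% of the higher set and in 12.6% of the lower set. The interferon response element was present in 3.38%, 2.68% and 12.3%. A match is a string of letters and was not tested for binding.

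Receptors that sense the lineage cytokines were called in both directions, and their counts stand beside 10.2% of all genes called higher and 7.26% called lower. Il12rb2, the inducible chain of the interleukin 12 receptor, was at 5.75, 5.15, 4.93, 6.14 and 5.08 in Th17, where 2 arrays detected it, and at 8.96, 9.57, 9.24, 8.75 and 8.47 in Th1. It was 12.0-fold lower (-3.59 ± 0.56, adjusted p = 9.3e-06), without overlap. Il12rb1, the chain shared with the interleukin 23 receptor, was lower, with a difference of -1.3 (SE 0.30, adjusted p = 0.0019), and Th17 replicate 5 was its lowest array, with overlap between the groups (8.54, 8.03, 8.01, 8.1 and 6.46 against 9.55, 9.15, 9.07, 8.51 and 9.35). Il18r1, the ligand-binding chain of the interleukin 18 receptor, was at 6.7, 7.21, 7.59, 7.74 and 8.7 in Th17 and 10.23, 9.09, 10.68, 9.31 and 9.37 in Th1 (-2.15 ± 0.42, adjusted p = 0.00028). The partner chain Il18rap gave different answers by probe. The brighter one had a difference of 0.14 ± 0.23 (adjusted p = 0.76), whereas another was detected on all Th1 arrays (5.74 ± 0.33) and on none of the Th17 arrays (4.50 ± 0.10) and was called lower (-1.24, adjusted p = 1.9e-05 over all kept probes). Cxcr3, the chemokine receptor by which Th1 cells are commonly recognised, was at 6.91, 7.48, 6.62, 6.44 and 7.88 in Th17 and 5.53, 4.86, 5.89, 5.99 and 6.22 in Th1. It was higher in Th17 on every array (1.36 ± 0.34, adjusted p = 0.0034), against its place on the Th1 list. Il2rb, a receptor chain for interleukins 2 and 15, was also called higher (0.97 ± 0.28, adjusted p = 0.013), a call that median scaling ended (adjusted p = 0.088). Of the 11 tested Th1 receptor genes 3 were called higher and 3 lower (median 0.23), and with median scaling 1 higher and 3 lower. Of 18 interleukin receptor genes 3 were called higher and 5 lower (median 0.24), and 0 and 6 with median scaling. Il15ra, which presents interleukin 15, and Il10ra, the interleukin 10 receptor, were lower, at differences of -2.93 and -2.7 (7.92 ± 0.37 and 7.8 ± 0.71 in Th1, 4.99 ± 0.34 and 5.1 ± 0.35 in Th17, adjusted p = 1.8e-11 and 7.0e-07). Il6ra and Il6st, the chains of the interleukin 6 receptor, were not called, at 0.98 ± 0.43 and 0.57 ± 0.34 (adjusted p = 0.12 and 0.27). Il1r1, the interleukin 1 receptor, was 0.25 ± 0.23 (adjusted p = 0.52), and Il2ra, the high-affinity chain for interleukin 2, 0.23 ± 0.22 (adjusted p = 0.55).

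Genes of the Th17 surface list were among the largest rises. Pdpn, which encodes the mucin-like glycoprotein podoplanin, was at 12.58, 12.47, 12.47, 12.89 and 10.25 in Th17 and 4.98, 4.95, 4.84, 7.55 and 4.81 in Th1. Th1 replicate 4 was more than 2 units above the other Th1 arrays and Th17 replicate 5 more than 2 units below the other Th17 arrays, but the groups did not overlap (6.71 ± 0.58, adjusted p = 4.0e-11). Aqp3, a water and glycerol channel, was at 10.70, 10.61, 10.85, 10.62 and 10.97 in Th17 and 4.57, 4.63, 4.77, 7.9 and 4.66 in Th1 (5.44 ± 0.39, adjusted p = 4.4e-13). Nt5e, which encodes CD73, an enzyme that makes adenosine at the cell surface, was at 11.49, 11.42, 12.32, 11.32 and 13.97 in Th17 and 7.82, 4.65, 5.52, 10.47 and 5.72 in Th1 (5.27 ± 0.68, adjusted p = 2.6e-07). Sgk1, a kinase that stabilises interleukin 23 receptor expression, was at 12.30, 12.01, 12.53, 12.79 and 12.72 in Th17 and 6.95, 6.91, 6.82, 10.15 and 5.84 in Th1 (5.13 ± 0.40, adjusted p = 4.3e-12). In all of these Th1 replicate 4 was the highest Th1 array. Without it the differences were 6.09 for Aqp3, 6.18 for Nt5e and 5.84 for Sgk1. The membrane protein gene Emp1 (4.91 ± 0.45) and Niban2 (4.85 ± 0.39) showed the same pattern, with 5.59 and 5.46 without that array. Ccr6, the receptor of CCL20 that marks Th17 cells, was at 9.12, 9.54, 9.7, 9.76 and 10.22 in Th17 and 4.52, 5.02, 7.8, 6.31 and 6.49 in Th1 (3.64 ± 0.51, adjusted p = 1.2e-06). Cysltr1, a leukotriene receptor, was higher by 3.42 (SE 0.73, adjusted p = 0.00077) and by 4.23 without Th17 replicate 5. Il1rn, the interleukin 1 receptor antagonist, was higher by 2.08 ± 0.48 (adjusted p = 0.0018). Tnfsf11, which encodes RANKL, a factor that drives osteoclasts and is a product of Th17 cells, was lower. Its levels were 7.13, 6.55, 5.55, 6.01 and 5.78 in Th17 and 6.64, 9.81, 10.85, 9.98 and 10.82 in Th1 (-3.42 ± 0.48, adjusted p = 1.2e-06), and Th1 replicate 1 overlapped the Th17 arrays. Without Th1 replicate 1 the difference of Tnfsf11 was -4.16. Of the 11 tested genes of the list 8 were called higher and 1 lower, with a median of 2.57, against 10.2% and 7.26% of all genes. Without Th17 replicate 5 the count of lower calls was 2.

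The other large rises were Ctla2b, related to inhibitors of cysteine proteases (4.3 ± 0.48), Gcnt2, an enzyme that branches surface glycans (4.1 ± 0.55), and Prr29 (3.96 ± 0.27), with adjusted p = 1.7e-08, 6.0e-07 and 1.6e-13. Gcnt2 was at 8.98 ± 1.25 in Th17 and Prr29 at 8.84 ± 0.18, and each was detected on 1 Th1 array. The other large falls included Serpinb6b, an intracellular serpin detected on none of the Th17 arrays and at 7.91, 10.08, 11.12, 11.15 and 10.56 in Th1, which was at least 28.7-fold lower in Th17 (4.54 ± 0.097 against 10.16 ± 1.34, adjusted p = 2.3e-09). Slc17a6, a vesicular glutamate transporter known from neurons, was at 10.79, 9.35, 9.39, 8.83 and 8.12 in Th1 and detected on none of the Th17 arrays (4.72 ± 0.20), at least 15.7-fold lower (adjusted p = 7.0e-11), and a second probe had a difference of -4.48. Serpina3f, a secreted serpin (-4.27 ± 0.41), Calhm6, of the calcium homeostasis modulator family (-4.16 ± 0.44), and Tg, which encodes thyroglobulin (-4.07 ± 0.72), were detected on 1, 1 and 2 Th17 arrays and on all Th1 arrays, with adjusted p = 5.9e-10, 3.5e-09 and 6.0e-05.

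Of 14 tested genes of the transforming growth factor beta response 8 were called higher in Th17 and 1 lower (median 1.02), against 10.2% and 7.26% of all genes. The counts were 6 and 1 without the 3 arrays that stood apart. Tgfbr1, the signalling receptor, was at 11.59, 11.45, 11.76, 11.45 and 12.91 in Th17 and 9.03, 9.26, 9.7, 10.68 and 9.0 in Th1 (2.3 ± 0.32, adjusted p = 8.7e-07). Th1 replicate 4 was the highest Th1 array and Th17 replicate 5 the highest Th17 array. Smad3, which carries the signal to the nucleus, was at 9.79, 9.86, 9.78, 9.69 and 9.8 in Th17 and 8.13, 7.55, 7.39, 7.77 and 7.2 in Th1 (2.18 ± 0.16, adjusted p = 4.0e-13), and the Th17 arrays lay close together. The feedback inhibitors Skil (1.32 ± 0.16) and Pmepa1 (1.88 ± 0.29) and the second receptor chain Tgfbr2 (1.01 ± 0.22) were also called higher, with adjusted p = 1.4e-07, 6.6e-06 and 0.0011. Second probes of Pmepa1 (0.48) and Tgfbr2 (0.44) did not pass, while that of Skil did (0.87). Itgae, which encodes the αE integrin CD103, was at 5.92, 6.54, 8.13, 7.6 and 9.17 in Th17 and 4.58, 5.84, 4.97, 5.98 and 5.02 in Th1, where the groups overlapped (2.19 ± 0.56, adjusted p = 0.0050). Itgae did not pass under 3 of 13 alternatives other than single arrays. Among these was the omission of Th17 replicate 5 and Th1 replicate 1 together (1.59, adjusted p = 0.073). Of its 5 other probes 4, near background, did not pass. Smad7 did not pass the filter. Among the 13 genes of the interleukin 6 and STAT3 response 4 were called higher and 1 lower (median 0.33), beside the same shares of all genes. Tnfrsf12a, the receptor of TWEAK, and Bcl3, a nuclear IκB protein, were higher by 1.89 ± 0.27 and 1.4 ± 0.22 (adjusted p = 1.3e-06 and 1.1e-05). Socs3, a feedback inhibitor of STAT3, was at 10.33, 10.22, 11.11, 11.41 and 11.78 in Th17 and 9.98, 10.31, 11.03, 10.30 and 8.83 in Th1, and its call (0.88 ± 0.32, adjusted p = 0.048) was lost without any of 7 single arrays (adjusted p up to 0.24) and under 9 of 13 other alternatives. The count of higher genes in the list was 2 without Th17 replicate 3, Th17 replicate 5 or Th1 replicate 5, and 2 without the 3 arrays, and the lower count was 2 without Th17 replicate 5.

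Of the interferon-response genes 15 of 24 were called lower in Th17, and of the antigen-presentation genes of MHC class I all 9. Isg15, a ubiquitin-like protein whose promoter is shown above, was at 6.72, 6.39, 5.49, 6.38 and 5.38 in Th17 and 8.43, 11.49, 10.76, 11.18 and 9.11 in Th1. It was 17.4-fold lower (-4.12 ± 0.70, adjusted p = 3.1e-05), and within Th1 it was lowest in replicates 1 and 5. Usp18, the protease that removes ISG15 from proteins, had the same order of Th1 arrays, with 6.53, 6.51, 6.51, 6.35 and 6.04 in Th17 and 8.54, 11.75, 10.19, 11.16 and 9.03 in Th1 (-3.75 ± 0.63, adjusted p = 2.8e-05). Cxcl9, a chemokine induced by interferon gamma, was detected on none of the Th17 arrays and at 7.52, 6.43, 8.6, 6.24 and 6.8 in Th1, and was at least 3.48-fold lower (4.68 ± 0.072 against 7.12 ± 0.96, adjusted p = 1.5e-05). Its relative Cxcl10 was lower, with a difference of -2.29 (SE 0.36, adjusted p = 8.5e-06). Igtp, an interferon-induced GTPase, was lower, with a difference of -1.9 (SE 0.14, adjusted p = 9.5e-13). The interferon list had 0 genes called higher and a median of -1.05, beside 7.26% of all genes called lower. Ifit3, an antiviral RNA-binding protein, was among the 9 that did not pass (-1.02 ± 0.38, adjusted p = 0.059), and it was called lower without Th17 replicate 4 or Th1 replicate 1, 3 or 5 and under 4 of 13 other alternatives. Ifit1 was not tested. Among the 22 listed and tested genes with a promoter window, 10 held the interferon response element and 6 the STAT palindrome.

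Genes that load and carry peptides were lower as well, of which Tap1 and Psmb9 were counted in the interferon list. Tap1 and Tap2, the peptide transporter subunits, were at 7.14 ± 0.44 and 9.62 ± 0.17 in Th17 and 9.1 ± 0.24 and 11.02 ± 0.27 in Th1, at differences of -1.96 and -1.4 (adjusted p = 1.7e-08 and 9.6e-08). Psmb9, a subunit of the immunoproteasome, was lower, with a difference of -1.57 (SE 0.14, adjusted p = 9.0e-11). Nlrc5, the activator of MHC class I genes, was at 7.48, 7.82, 7.76, 7.78 and 8.14 in Th17 and 9.27, 9.09, 9.03, 9.03 and 9.39 in Th1 (-1.37 ± 0.16, adjusted p = 3.1e-08). The heavy chain genes H2-K1 and H2-D1 were lower, at differences of -1.05 and -0.65 (adjusted p = 0.0058 and 0.00073). These chains are near-identical in parts, so their probes may share targets, and H2-K1 did not pass with only the 10 arrays compared (adjusted p = 0.057). B2m, the light chain, was at 14.42, 14.44, 14.32, 14.39 and 14.84 in Th17 and 15.14, 14.93, 15.24, 14.90 and 14.90 in Th1, a small difference without overlap (-0.54 ± 0.097, adjusted p = 8.0e-05). All 9 tested genes of the MHC class I list were called lower, with a median of -1.09, beside 7.26% of all genes called lower. All 9 were also called lower with each single array left out and with median scaling, and 8 where only the 10 arrays compared entered the fit. The 7 MHC class II genes had a median of 0.86, with 6 above 0 and 3 at an unadjusted p under 0.05 by limma. Of these 7 genes 1 was called, beside 10.2% of all genes called higher. It was Ciita, the class II activator (0.86 ± 0.29, adjusted p = 0.034), detected on 3 Th17 arrays and on none of the Th1 arrays, at least 1.33-fold higher. Its call was lost without Th17 replicate 3 or 4 or Th1 replicate 1, 3, 4 or 5 (adjusted p up to 0.16) and under 9 of 12 other alternatives, and the list held 2 calls without Th17 replicate 1 or 2 or Th1 replicate 3.

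**Figure D3:**
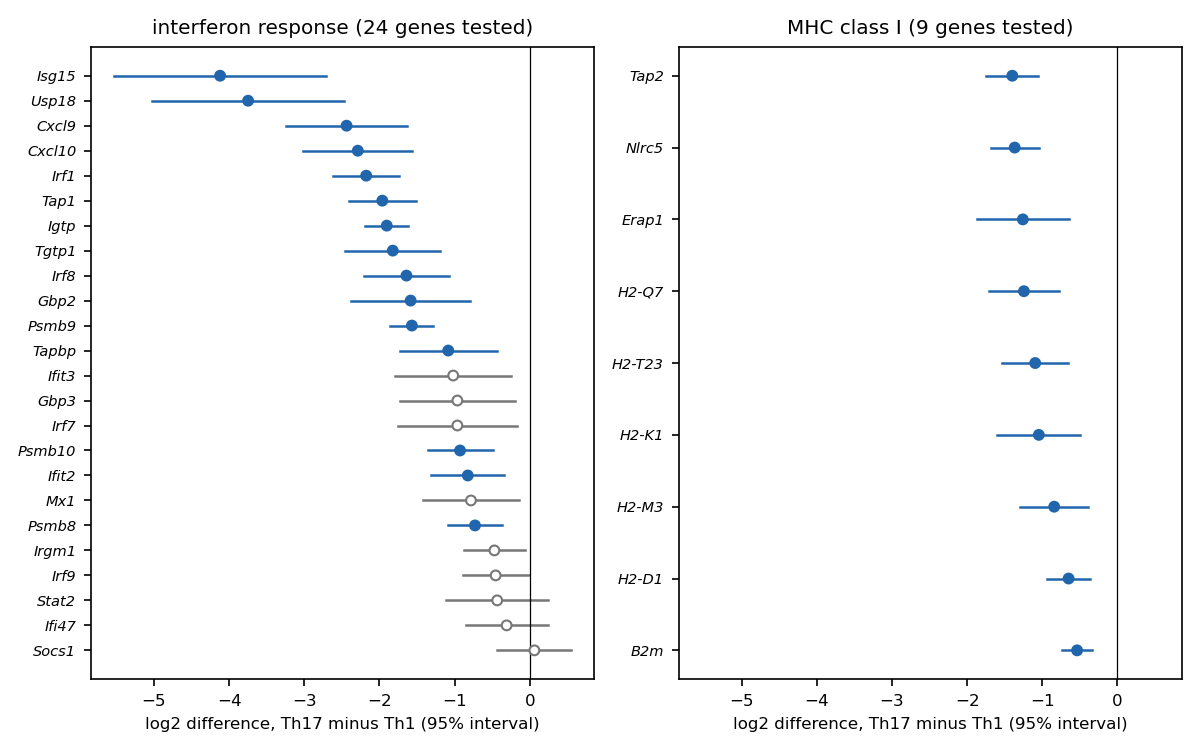
Each point is the log2 difference, Th17 minus Th1 (x axis), of a tested gene (y axis) of the interferon list (left) or the MHC class I list (right), with its 95% interval from the fit. Filled points were called, 15 of 24 in the interferon list and 9 of 9 in the MHC class I list, and all of these lie below 0.

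Of 10 tested chemokine genes 6 were called lower in Th17 and 1, Ccl20, higher (median -2.15). These and the next counts stand beside 7.26% of all genes called lower and 10.2% called higher. Of 12 tested receptors 8 were called higher and 3 lower (median 1.09), and 6 and 3 without the 3 arrays that stood apart. Beside Ccr6 and Cxcr3, Gpr15, a receptor that guides T cells to the large intestine, was detected on all Th17 arrays (7.43 ± 0.51) and on none of the Th1 arrays (4.69 ± 0.18), at least 4.52-fold higher (adjusted p = 7.3e-10), though a second probe did not pass (0.53). Ccr8, a receptor of Th2 and regulatory T cells, was higher by 2.27 ± 0.49 (adjusted p = 0.00084), and Cxcr4, which retains cells in bone marrow, by 2.01 ± 0.47 (adjusted p = 0.0018). Gpr183, an oxysterol receptor that positions lymphocytes, was lower, with a difference of -1.96 (SE 0.30, adjusted p = 6.0e-06). Ccr7, which guides cells to lymph nodes, was lower, at -0.95 (adjusted p = 0.025), a call lost without Th17 replicate 1 or 4 or Th1 replicate 3, 4 or 5 (adjusted p up to 0.090) or with only the 10 arrays compared, and without Th1 replicate 4 the list held 1 lower call. Among 15 integrin and adhesion genes 5 were called higher and 4 lower. Itgb7, the β chain that pairs with αE or α4, Itga3, a laminin receptor chain, and Vim, which encodes vimentin, were higher by 1.21 ± 0.25, 1.47 ± 0.41 and 2.43 ± 0.46 (adjusted p = 0.00048, 0.0096 and 0.00015). Itgb1, the β1 chain, Cd44, the hyaluronan receptor, and Cd69, an early activation marker, were lower, at differences of -1.35, -1.16 and -1.13 (adjusted p = 0.00014, 0.0039 and 1.9e-07). Further probes of Itgb1 (-0.61), Cd69 (-0.66) and Cd44 (-1.20, -0.15 and -0.15) did not pass, while another of Cd44 did (-0.84).

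Several ligands of the TNF superfamily were lower in Th17. Tnfsf8, which encodes CD30 ligand, was detected on none of the Th17 arrays and was at 8.3, 7.4, 8.19, 7.44 and 7.53 in Th1, at least 5.47-fold lower (4.66 ± 0.15 against 7.77 ± 0.44, adjusted p = 1.6e-11). Tnfsf4, which encodes OX40 ligand, and Cd70, the ligand of CD27, were lower, at differences of -3.04 and -3.14 (adjusted p = 2.4e-08 and 4.1e-06). Cd40lg, the helper ligand for B cells, was detected on none of the Th17 arrays (4.92 ± 0.28) and on all Th1 arrays (6.47 ± 0.42), at least 2.22-fold lower (adjusted p = 2.3e-07). Fas, the death receptor, was lower, at -1.64 (adjusted p = 1.9e-05). A further Fas probe did not pass (-0.51), and others did (-1.59 and -1.07). The receptors Tnfrsf26 and Tnfrsf13b, the latter encoding TACI, were higher by 2.77 ± 0.36 and 2.7 ± 0.25 (adjusted p = 3.6e-07 and 2.2e-10). Of 26 tested members 10 were called lower and 4 higher (median -0.38), beside 7.26% and 10.2% of all genes. Inhibitory and costimulatory molecules were lower in 10 of 19 tested genes and higher in 2 (median -1.19). Cd274, which encodes PD-L1, was at 7.5, 7.56, 7.5, 7.5 and 7.97 in Th17 and 9.84, 9.71, 10.65, 9.76 and 10.47 in Th1 (-2.48 ± 0.22, adjusted p = 6.8e-11). The second PD-1 ligand, Pdcd1lg2, and the genes Cd200 and Btla, which encode surface molecules that restrain immune cells, were lower, at differences of -1.76, -2.94 and -2.2 (adjusted p = 0.00032, 1.4e-08 and 5.7e-12). Ctla4, the inhibitory receptor for CD80 and CD86, was higher in Th17 with overlap (13.01 ± 0.51 against 11.51 ± 0.77, 1.5 ± 0.41, adjusted p = 0.0088). The other higher call of the list was Cd86, and the count of higher calls was 1 without any of 8 single arrays.

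Malt1, the protease and scaffold deleted in the other genotype of the series, differed between WT lineages. It was at 12.42, 12.63, 12.54, 11.90 and 12.96 in Th17 and 11.75, 10.45, 10.35, 10.58 and 10.88 in Th1, without overlap (1.69 ± 0.30, adjusted p = 5.0e-05), and Th1 replicate 1 was the highest Th1 array. A second probe lay near background and did not pass (0.25). Within the NF-κB pathway, which MALT1 activates downstream of the T cell receptor, 5 of 23 genes were called lower and 3 higher (median -0.12), beside 7.26% and 10.2% of all genes. Rel, which encodes c-Rel, was at 7.49, 7.06, 6.13, 6.89 and 6.93 in Th17 and 7.53, 8.85, 8.2, 8.87 and 8.8 in Th1 (-1.55 ± 0.21, adjusted p = 9.0e-07), and Th1 replicate 1 was lowest. Nfkb2, which encodes p100, was lower, with a difference of -1.25 (SE 0.21, adjusted p = 3.1e-05), while Rela, which encodes p65, had a difference of 0.10 ± 0.15 (adjusted p = 0.70). Tnfaip3, which encodes the inhibitor A20 that MALT1 cleaves, was lower, at -1.09 (adjusted p = 0.019), a call lost without Th1 replicate 3 (adjusted p = 0.063) or Th1 replicate 5 (adjusted p = 0.0504). In the list of 23 T cell receptor signalling genes 2 were called higher, beside 10.2% of all genes. They were Vav1, an exchange factor (0.63 ± 0.13), and Rcan1, a calcineurin inhibitor (0.87 ± 0.21), and both calls were lost with median scaling, while without Th17 replicate 4 there were 4 higher calls. A second Rcan1 probe did not pass (0.16). The 5 lower ones included the kinase Fyn (-1.02 ± 0.27, adjusted p = 0.0071), which did not pass where only the 10 arrays compared entered the fit (adjusted p = 0.095) or by its second probe (-0.025). There were 2 lower calls without Th1 replicate 4 and 3 without Th17 replicate 3 or 4 or Th1 replicate 1 or 5. Among 16 AP-1 and immediate early genes 5 were called lower and 0 higher (3 lower without Th1 replicate 4). Atf3, a stress-induced factor, and Nr4a2, an orphan nuclear receptor, were lower, at differences of -2.98 and -1.56 (adjusted p = 2.6e-06 and 0.00030). Batf3, which partners JUN, was lower, at -2.24 (adjusted p = 0.0074) and did not pass without the 3 arrays (adjusted p = 0.066).

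Markers of other helper fates did not follow a single direction, and their counts stand beside 10.2% of all genes called higher and 7.26% called lower. Foxp3, the factor that defines regulatory T cells, gave differences that depended on the probe. The probe of highest signal was at 10.31, 10.14, 10.26, 9.9 and 10.50 in Th17 and 9.63, 9.93, 9.47, 9.84 and 9.57 in Th1, called higher by 0.53 ± 0.15 (adjusted p = 0.0096), a call lost with median scaling (adjusted p = 0.40) and without Th17 replicate 5 and Th1 replicate 1 together (adjusted p = 0.066). The other 3 kept probes were detected on all Th17 arrays and on 1, 3 and 1 of the Th1 arrays, and were higher by 2.13, 3.94 and 3.75, or 4.39-fold to 15.4-fold (adjusted p over all kept probes 1.5e-05, 7.0e-09 and 8.5e-10). Their levels were 7.16 ± 0.29, 9.74 ± 0.50 and 8.97 ± 0.26 in Th17 and 5.03 ± 0.44, 5.80 ± 1.28 and 5.22 ± 1.03 in Th1. Why the probes differ was not tested. In the regulatory T cell list 4 of 9 genes were called higher and 3 lower. Gpr83, a receptor found on regulatory T cells, was higher by 1.71 ± 0.44 (adjusted p = 0.0055), though a second probe did not pass (0.44). Tnfrsf18, which encodes GITR, was lower, at -1.54 (adjusted p = 0.018), a call lost without Th17 replicate 5 (adjusted p = 0.083) and without the 2 or 3 arrays that stood apart. The count of higher genes was 2 without these. The lower count was 1 without Th17 replicate 4 or 5 or Th1 replicate 1 or 3. Gata3, the Th2 factor, was at 4.74, 4.71, 4.66, 4.77 and 6.43 in Th17, where replicate 5 alone detected it, and at 7.09, 8.03, 8.15, 7.39 and 7.85 in Th1 (-2.64 ± 0.36, adjusted p = 7.0e-07). Il4, the Th2 cytokine, was at 6.24, 6.77, 6.04, 6.12 and 5.45 in Th17 and 6.31, 8.34, 8.58, 7.55 and 6.92 in Th1 with overlap (-1.42 ± 0.42, adjusted p = 0.015), and it did not pass without Th1 replicate 2 (adjusted p = 0.052) or Th1 replicate 3 (adjusted p = 0.065), with no background correction (0.090) or in the authors' value table. Of 7 tested Th2 genes 2 were called higher and 2 lower, with 1 higher without Th17 replicate 1, 3 or 4 or Th1 replicate 4 or 5 and 1 lower without Th1 replicate 2 or 3. Of 9 follicular helper genes 4 were called higher and 2 lower, with 2 higher without Th17 replicate 3, Th17 replicate 5 or Th1 replicate 5. Cxcr5, the follicular homing receptor, was among the higher ones (1.25 ± 0.43, adjusted p = 0.041), a call lost without Th17 replicate 3 or 5 or Th1 replicate 1, 2 or 5 (adjusted p up to 0.19) and under 9 of 13 other alternatives. Among 12 genes of naive and resting T cells 3 were called higher and 2 lower, with 1 lower without Th17 replicate 1, 4 or 5 or Th1 replicate 3, 4 or 5. Klf2, a factor of quiescence, was at 8.49, 8.45, 9.41, 7.99 and 11.49 in Th17, highest in replicate 5, and at 8.0, 6.73, 5.5, 8.03 and 5.44 in Th1, with overlap (2.42 ± 0.54, adjusted p = 0.0012). Foxo1, a factor of the same programme, and Igfbp4, an insulin-like growth factor binding protein, were higher by 1.94 ± 0.19 and 3.26 ± 0.33 (adjusted p = 8.1e-10 and 1.4e-09). A second Foxo1 probe had a difference of 0.012 and did not pass, and the mean of the probes gave 0.97. Il7r, the survival receptor of naive cells, had a difference of 1.02 ± 0.45 and did not pass (adjusted p = 0.12), though it did where only the 10 arrays compared entered the fit (adjusted p = 0.027). Of 15 STAT and SOCS genes 3 were called higher and 1, Stat4, lower, and 1 higher without Th17 replicate 5. Pias1, an inhibitor of STAT proteins, was one of the 3 (0.44 ± 0.13, adjusted p = 0.016), and it did not pass without that array (adjusted p = 0.071) or under 4 of 13 other alternatives, median scaling among them (adjusted p = 0.62). Pim1, a kinase induced by STAT proteins, was the lower gene of the interleukin 6 list (-1.28 ± 0.37, adjusted p = 0.013). Pim1 did not pass with no background correction (adjusted p = 0.067), in the authors' value table, as the mean of its probes (0.086), or without the 2 or 3 arrays that stood apart (0.058 and 0.051), and its second probe had a difference of 0.18. Socs2, a feedback inhibitor of cytokine receptors, was higher by 1.66 ± 0.32 (adjusted p = 0.00019).

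**Figure D4:**
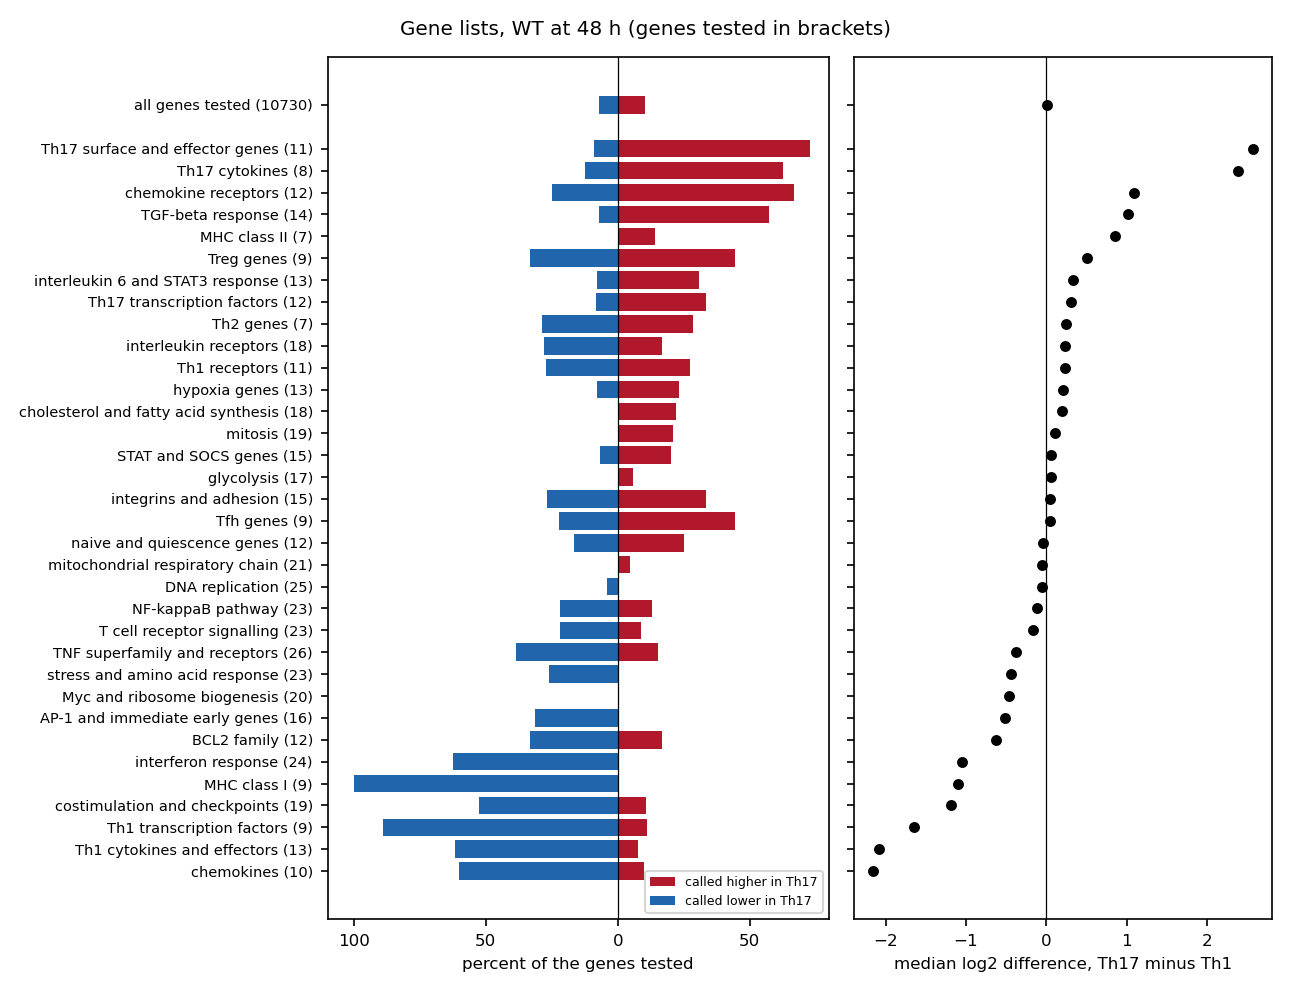
Bars give the percentage of tested genes of each list called higher (red, to the right) or lower (blue, to the left) in Th17, with the number tested in brackets, and points give the median log2 difference (x axis of the right panel). All genes tested are the top row at 10.2% higher and 7.26% lower; the lists run from Th17 surface genes (median 2.57) down to chemokines (-2.15).

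Markers of other cells were checked beside these results, and calls among them stand beside 10.2% of all genes called higher and 7.26% called lower. Among 8 T cell markers that the annotation names, 7 were detected on all 10 arrays, with summed normalized intensities of 33813 to 53002 in Th17 and 38090 to 44992 in Th1. Among the 7 tested 1 was called, Cd4, which was lower in Th17 (7.13, 6.68, 6.42, 6.92 and 7.03 against 8.04, 7.86, 7.7, 7.59 and 8.47, -1.1 ± 0.24, adjusted p = 0.00094). There were 2 lower calls among them without Th17 replicate 1, and 1 higher call without Th17 replicate 5. The summed cytotoxic markers were 3241 to 4428 in Th17 and 4256 to 6474 in Th1. Within them Klrd1, which encodes CD94, was higher in Th17 (3.27 ± 0.49, adjusted p = 3.6e-06), Nkg7 and Crtam, an adhesion receptor, were lower (Crtam -2.53 ± 0.36, adjusted p = 1.6e-06), and Gzmk was undetected on all 10 arrays. Cd8b1 was detected on all 10 arrays and Cd8a on 1. Natural killer markers summed to 185 to 447 in Th17 and 74.0 to 136 in Th1, and 5 of 7 were undetected, Ncr1 and Klrb1c among them, while Klre1, a lectin-like receptor, was higher (1.81 ± 0.52, adjusted p = 0.012), a call lost without Th17 replicate 4 (adjusted p = 0.056). In the γδ T cell list, of which 3 genes were named by the table, Blk, a kinase of γδ T and B cells, was higher (1.71 ± 0.48, adjusted p = 0.011), also a call lost without Th17 replicate 4 (adjusted p = 0.056) or without the 3 arrays (0.052). The second Blk probe did not pass (difference 0.62), and Cd163l1 and Sox13 were undetected. The sums were 38.2 to 302 in Th17 and 25.4 to 44.2 in Th1. Of 6 tested B cell markers and 8 tested myeloid markers 0 were called by limma (2 of each had an unadjusted p under 0.05), with sums of 133 to 703 and 339 to 611 in Th17 and 99.99 to 682 and 298 to 812 in Th1. A single array decided these counts in places, since 1 B cell marker was called higher without Th1 replicate 3 and 1 myeloid marker lower without Th17 replicate 5 or Th1 replicate 2. In the B cell list 2 of 7 named genes were undetected on all 10 arrays, Pax5 and Cr2. In the myeloid list 6 of 11 were, Cd14, S100a8 and S100a9 among them. Other members were detected. Cd79b was detected on 5 Th17 and 4 Th1 arrays (up to 9.06 and 8.19), Blnk on 3 and 3, Ebf1 on 2 and 2, and Ms4a1 on 1 and 1. Fcer2a was detected on 0 Th17 arrays and 1 Th1 array (up to 8.17 in Th1). The myeloid-list genes Ctss and Fcer1g, the latter also in the natural killer list, were detected on all 10 arrays. Dendritic cell markers summed to 929 to 5715 in Th17 and 1176 to 5831 in Th1, with Xcr1 undetected. Cd74 (9.33 to 12.15 in Th17, 10.01 to 12.04 in Th1) and H2-Aa (7.37 to 10.14 and 5.40 to 10.58) were detected on all 10 arrays. The other members were at or below 6.27 on every array. Of 4 tested genes 1 was called lower, Zbtb46, a dendritic cell factor detected on none of the Th17 arrays and at least 1.06-fold lower (-0.78 ± 0.24, adjusted p = 0.018), a call lost without Th1 replicate 2 (adjusted p = 0.091). Erythroid sums were 33.9 to 39.8 in Th17 and 28.95 to 56.2 in Th1, with Hba-a1 undetected. The part of other cells in the results was not tested.

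The same lineage difference was measured in 2 further sets of 10 arrays that share no array with this one, WT at 72 h and Malt1-/- at 48 h. They share the spread of each gene with it, since all arrays entered a single fit. At 72 h 2023 genes were called (18.9%), of which 1092 were among the 1873 genes called at 48 h, 58.3% of these and 54.0% of the calls at 72 h, and all 1092 had the same sign. In Malt1-/- cells 1991 genes were called (18.6%), and 1046 were shared, 55.7% and 52.4% of the 2 lists, 1043 of them with the same sign. Across all 10730 genes, which are not independent replicates, the differences correlated with those at 48 h in WT at r = 0.797 for WT at 72 h and 0.768 for Malt1-/-. Il17f had differences of 9.41 at 72 h and 8.12 in Malt1-/- cells, Il17a of 6.04 and 2.86, and Ifng of -7.91 and -5.51. The differences of Tbx21 were -4.08 and -4.21, those of Rora 2.99 and 3.75, and those of Isg15 -5.25 and -4.23. The interferon list was called lower in 15 of 24 genes at 72 h and in 14 in Malt1-/- cells, and the MHC class I list in 7 of 9 genes in each. Il10, higher by 3.46 in WT at 48 h, had differences of 1.01 and 1.77. Il24, at 1.96 in WT at 48 h and not called there, was at -1.44 and -1.44. In the main fit a change of the lineage difference was not called for any gene given in this paragraph.

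The change of the lineage difference was itself tested. From 48 h to 72 h it was called for 1 gene (0.00932%), Upk1a, a uroplakin of the bladder lining, which was undetected in both lineages at 48 h (difference 0.030) and lower in Th17 at 72 h (-1.03), a change of -1.06 ± 0.17 (adjusted p = 0.0037). In all 844 genes had an unadjusted p under 0.05, 7.87% of those tested. Without Th17 replicate 5 of 48 h the test called 23 genes, without Th1 replicate 1 of 48 h 20, without WT Th1 replicate 4 of 72 h 76, without WT Th17 replicate 5 of 72 h 9, and without Th1 replicate 4 of 48 h or Th1 replicate 5 of 72 h 2. Between genotypes at 48 h it was called for 15 genes (0.14%), and 1176 had an unadjusted p under 0.05 (10.96%). Nts, which encodes the peptide neurotensin, was detected on none of the WT Th17 arrays and at 7.0, 7.65, 7.87, 7.37 and 7.18 in WT Th1, at least 4.27-fold lower in Th17 (-2.6, adjusted p = 6.0e-11). In Malt1-/- cells the difference was -0.34, a change of 2.26 ± 0.32 (adjusted p = 0.00032), with Th1 levels of 7.41 in WT and 5.12 in Malt1-/- cells. Vcam1, an adhesion molecule, was undetected in both WT lineages (-0.22) and higher in Malt1-/- Th17 cells (1.14, change 1.36 ± 0.23, adjusted p = 0.0036). Cxcr6, a chemokine receptor, was called higher in Th17 in both genotypes, at 0.94 in WT, where no Th1 array detected it (at least 1.55-fold), and 2.7 in Malt1-/- (change 1.76 ± 0.37, adjusted p = 0.029). The WT call of Cxcr6 was lost with no background correction (adjusted p = 0.089), in the authors' value table and without the 2 or 3 arrays that stood apart (0.11 and 0.11). Alpk2, an atypical kinase, had a difference of 2.62 in WT cells, where no Th1 array detected it (at least 5.22-fold higher, adjusted p = 4.0e-07), and of 0.098 in Malt1-/- cells (change -2.52 ± 0.49, adjusted p = 0.015), though a second probe of it near background did not pass in WT (-0.013). Gm4951, an interferon-inducible GTPase gene, had differences of -2.07 in WT (at least 2.75-fold lower) and -0.26 in Malt1-/- (change 1.80 ± 0.32, adjusted p = 0.0061), and Zfp318, a zinc finger gene, differences of -0.022 and 1.97 (change 1.99 ± 0.42, adjusted p = 0.030). Without WT Th17 replicate 5 the count was 68, without WT Th1 replicate 1 it was 42 and without WT Th1 replicate 2 it was 26. It was 7 without WT Th17 replicate 1 or WT Th1 replicate 3 or 5, 9 without Malt1-/- Th17 replicate 2, and 8 without Malt1-/- Th1 replicate 1 or 4. In the Malt1-/- cultures 5 of 8 tested myeloid markers were called higher in Th17, against 0 in WT. This stands beside 18.6% of all genes called in either direction in Malt1-/- cells. The 15 genes whose lineage difference was called as changed between genotypes did not include a gene of the myeloid list. The part of myeloid cells in these differences was not tested. The counts of genes with a changed lineage difference therefore moved with single arrays more than the lineage difference itself did, which was called for 1501 to 1787 genes with single arrays left out.

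**Figure D5:**
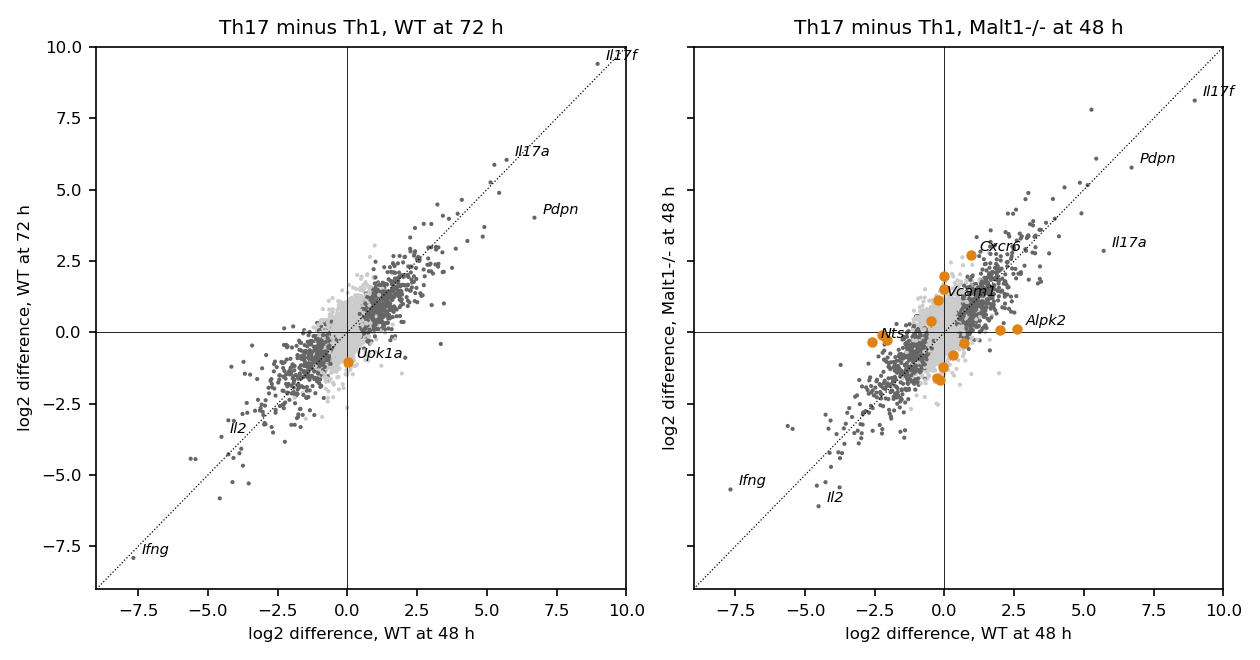
Each point is a gene placed by its log2 difference (Th17 minus Th1) in WT at 48 h (x axis) and in WT at 72 h (left, y axis) or Malt1-/- cells at 48 h (right, y axis), dark where called in WT at 48 h, and the dotted line marks equality. Orange points are the 1 gene (left) and 15 genes (right) whose differences were called as unequal, and Il17f and Ifng lie near the line at opposite ends in the left panel.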

How the data were processed

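Total RNA of 40 cultures in 8 groups of 5 was read on bead arrays. The authors deposited 1 linear signal intensity per probe and array, with no background subtraction or scaling seen in the values. Beside it, per the file headers, stands a fraction equal to 1 minus the detection p of the probe. The authors' deposited value table holds log2 values that matched quantile-normalized raw signals centred on each probe's median to within 0.0149, and served as an alternative. The scanner software and its settings are not given in the sources used here.

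Intensities were corrected by normexp with background estimated from the detection p (offset 16), quantile normalized and taken to log2 (limma 3.58.1, R 4.3.3). Probes with a detection p under 0.05 on at least 5 of 40 arrays were kept (20739 of 45281). Of all probes 34885 had 1 gene symbol in the platform annotation, 18 had several and 10378 were not listed. Each of 10730 genes was represented by its kept probe of highest mean signal. A single limma fit with 1 mean per group, over all 40 arrays, gave each contrast, with Benjamini-Hochberg adjustment over all genes. Where no array of the lower group detected a gene, the fold is a bound, the mean of the higher group against the mean, over the arrays of the lower group, of the higher of the lowest detected signal on the array and the probe's own. The procedure was tested on simulated data.

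Genes were named by rule: the 12 largest rises and falls among called genes whose groups did not overlap and that were detected on at least 4 arrays of the higher group, a fixed set of lineage genes, and up to 3 called members of each list by smallest p. Other list members with values, and the genes named for a change between cultures, were chosen after their values were seen. The members and lists were chosen with earlier results of these data known. Promoter windows are from RefSeq (GRCm38.p6). Alternatives covered background correction, scaling, filters, probe choice, the arrays in the fit, array weights, a replicate block and the omission of arrays.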

Additional observations from a re-analysis of the deposited data

Results flagged for a closer look

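Single arrays stood apart from the other 4 of their group for 39 of the 330 groups of 5 values checked over the genes named in the text. A value stood apart where its gap to the nearest of the others, divided by the range of the group, was above Dixon's 95% critical value for 5 samples. By that construction about 1 in 20 groups would be marked by chance if values were normally distributed, and genes measured on the same array are not independent. Values below are log2 intensities, with the range of the other 4 arrays of the group beside each.

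Th17 replicate 5 lay below the rest for Alpk2 (6.46 against 7.87 to 8.01), Batf3 (5.06 against 7.55 to 8.48), Cysltr1 (5.52 against 9.27 to 9.93) and Gcnt2 (6.78 against 9.35 to 9.82). It also lay below them for Gpr83 (7.01 against 8.95 to 9.59), Il12rb1 (6.46 against 8.01 to 8.54), Il24 (4.66 against 9.33 to 10.15) and Lta (9.92 against 13.01 to 13.34). The same held for Mthfd2 (11.18 against 12.10 to 12.35), Pdpn (10.25 against 12.47 to 12.89), Tnfrsf13b (11.26 against 11.94 to 12.05) and Tnfrsf18 (9.52 against 10.99 to 11.57). Th17 replicate 5 lay above the rest for B2m (14.84 against 14.32 to 14.44), Bcl2l11 (9.16 against 6.80 to 7.37), Cd274 (7.97 against 7.50 to 7.56) and Emp1 (13.85 against 13.31 to 13.44). It also lay above them for Gata3 (6.43 against 4.66 to 4.77), Tgfbr1 (12.91 against 11.45 to 11.76) and Tnfrsf26 (8.83 against 7.77 to 7.96).

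Th1 replicate 4 lay below the rest for Sesn2 (6.10 against 7.14 to 7.40). Th1 replicate 4 lay above the rest for Aqp3 (7.90 against 4.57 to 4.77), Ctla2b (7.59 against 4.75 to 5.47), Il17f (9.37 against 4.45 to 4.87) and Niban2 (8.09 against 5.04 to 5.14). It also lay above them for Pdpn (7.55 against 4.81 to 4.98), Sgk1 (10.15 against 5.84 to 6.95) and Tnfrsf13b (9.95 against 8.74 to 9.09). Th1 replicate 1 lay below the rest for Ccl20 (4.81 against 5.37 to 5.57), Fasl (7.94 against 8.53 to 8.70), Il2 (12.01 against 14.53 to 15.04) and Il3 (7.41 against 10.67 to 11.39). It also lay below them for Tnfsf11 (6.64 against 9.81 to 10.85).

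Th1 replicate 2 lay above the rest for Tg (10.28 against 9.24 to 9.53) and Zbtb46 (6.27 against 5.06 to 5.33). Th1 replicate 3 lay below the rest for Cd40lg (5.73 against 6.57 to 6.82). Th1 replicate 3 lay above the rest for Itgb1 (8.00 against 6.45 to 6.90). Th17 replicate 1 lay below the rest for Mvd (9.19 against 9.80 to 9.89). Th17 replicate 2 lay above the rest for Cd70 (6.20 against 4.56 to 4.97). Th17 replicate 4 lay above the rest for Pim1 (6.11 against 4.65 to 5.06).

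The lineage difference itself differed between sets of cultures, by the interaction term of the fit, for 7 genes named in the text. From 48 h to 72 h in WT cells it changed by -1.06 for Upk1a. From WT to Malt1-/- cells at 48 h it changed by 2.26 for Nts, 1.99 for Zfp318, 1.80 for Gm4951, 1.76 for Cxcr6, 1.36 for Vcam1 and -2.52 for Alpk2.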

How the results depend on the processing

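Of 165 named genes, 122 kept their side of the threshold and their direction under every one of the 23 alternatives run that gave them a value. The count of genes called between the lineages was 1255 to 2095 over the alternatives, within 1.5 times of 1873, and 1501 to 1787 with single arrays left out. It was 1502 without Th17 replicate 5 and Th1 replicate 1, 1358 without these and Th1 replicate 4, and 1821 without the 8 arrays of the series that were closer to another group, sets chosen after seeing the data. Median scaling called 400 higher and 855 lower. The change of the lineage difference from 48 h to 72 h, called for 1 gene, was called for 0 genes with no background correction, the authors' value table, no detection filter, the stricter filter or only the arrays compared, for 2 with an offset of 50, and for 17 with array weights. It was 42 without the 2 arrays, 39 without the 3, 121 without the 8, and 1 to 76 with single arrays left out. The change from WT to Malt1-/- cells, called for 15 genes, was 9 with the stricter filter, 28 with the mean of kept probes, 76 with only the arrays compared and 274 with array weights. It was 74, 42 and 181 without the 2, 3 and 8 arrays, and 7 to 68 with single arrays left out. The replicate block gave 1912 genes for the lineage difference and 26 for the change between genotypes. Between the Th17 and Th1 arrays at 48 h, samples of the same number did not deviate together (residual correlations of -0.155, 0.053, 0.066, -0.088 and 0.146 for numbers 1 to 5, with the own number closest for 1 of 5 Th17 arrays). Over the 15 pairs of the 6 groups used, 0 had every correlation over 0.1, so the numbers are not taken to pair samples. Single pairs did deviate together, as did replicates 5 of WT Th17 at 48 h and 72 h (0.513), where the other 4 numbers ran from -0.242 to 0.113. Directions that turned belonged to uncalled genes. With median scaling Batf was at -0.15, Ldha at -0.014 and Rela at -0.12. Upk1a was at -0.15 with no detection filter, Stat3 at -0.016 without the 3 arrays, and Il18rap at -0.55 as the mean of its probes, where it was called (adjusted p = 0.019). With single arrays left out Upk1a ran from -0.025 to 0.065, Zfp318 from -0.24 to 0.15 and Lta from -0.043 to 0.92. The causes were not tested. A slide block was not run, since the file headers used here give no slide. Genes near background have differences bounded by the floor of the arrays.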

Other observations

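Genes of metabolism were called in 4 lists, and their counts stand beside 10.2% of all genes called higher and 7.26% called lower. Of 17 glycolysis genes 1 was called, Pfkfb4, an enzyme that makes an activator of glycolysis (0.63 ± 0.21, adjusted p = 0.028), and that call was lost without Th17 replicate 2 or 4 or Th1 replicate 2 or 5 and with median scaling. Another Pfkfb4 probe had a difference of -0.056 and did not pass. Ldha, which encodes lactate dehydrogenase, had a difference of 0.057 ± 0.11 (adjusted p = 0.78). Of 13 hypoxia genes 3 were called higher and 1 lower, with 0 higher under median scaling and 1 without the 3 arrays that stood apart. Ddit4, an inhibitor of mTOR signalling (1.05 ± 0.29), and P4ha1, a collagen-modifying hydroxylase (0.99 ± 0.28), were among the higher ones (adjusted p = 0.0097 and 0.012), and neither passed under either of these settings. Car12, a carbonic anhydrase, was lower (-1.19 ± 0.28, adjusted p = 0.0018), though a second probe did not pass (-0.90). Of 18 genes of cholesterol and fatty acid synthesis 4 were called higher and 0 lower, with 2 higher under those settings. They included the mevalonate pathway enzymes Mvd (1.08 ± 0.18, adjusted p = 1.9e-05) and Mvk (0.72 ± 0.20, adjusted p = 0.011), and Fdps (0.45 ± 0.13, adjusted p = 0.011), whose call was lost there and as the mean of its probes. Of 21 respiratory chain genes 1 was called, Sdhc, a subunit of succinate dehydrogenase (0.33 ± 0.12, adjusted p = 0.048), a call lost without any of 7 single arrays and under 4 of 13 other alternatives, and 2 were called lower without Th1 replicate 2.

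The counts of the next lists also stand beside 10.2% of all genes called higher and 7.26% called lower. Of 25 DNA replication genes 1 was called lower, Ccne1, which encodes cyclin E1 (-0.51 ± 0.15, adjusted p = 0.014), a call lost without Th17 replicate 5 or Th1 replicate 5, and 2 were lower without Th17 replicate 1 or 2 or Th1 replicate 2. Of 19 mitosis genes 4 were called higher, with 2 without Th1 replicate 5 and 0 with median scaling. They included Prc1 (0.57 ± 0.13), Kif22 (0.46 ± 0.12) and Nusap1 (0.40 ± 0.11), proteins of the mitotic spindle (adjusted p = 0.0015, 0.0041 and 0.011). Further Nusap1 probes (-0.15 and 0.43) did not pass. Of 20 genes of Myc and ribosome biogenesis 0 were called by limma, 9 had an unadjusted p under 0.05, and 0 to 3 were called under the alternatives. Their median difference was -0.47, with 19 of 20 below 0, and Myc itself had a difference of -0.54 ± 0.24 (adjusted p = 0.12). Of 23 genes of the stress and amino acid response 6 were called lower and 0 higher, with 3 without Th17 replicate 5 or Th1 replicate 3. They included Sesn2, a sensor of amino acids (-1.27 ± 0.33, adjusted p = 0.0054), and Mthfd2, a mitochondrial folate enzyme (-0.78 ± 0.20, adjusted p = 0.0056). By its second probe Sesn2 did not pass (-0.55). In the BCL2 family 4 of 12 genes were called lower and 2 higher. The death-promoting members Bcl2l11 (-1.39 ± 0.31) and Bid (-0.75 ± 0.17) and the protective Bcl2l1 (-1.51 ± 0.42) were lower (adjusted p = 0.0012, 0.0016 and 0.0098), and Bik, another death-promoting member, was higher (0.87 ± 0.22, adjusted p = 0.0045).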
